A study of Mus musculus with 9 samples.

Results

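The genes described here carry the signal of leukaemia inhibitory factor (LIF) into mouse embryonic stem (ES) cells: the receptor chains Lifr and Il6st, the kinases Jak1 and Jak2, the transcription factor Stat3, the feedback inhibitors Socs2 and Socs3, the kinases Pim1 and Pim3, and the phosphatase Ptpn11. They were chosen by name, and each matched 1 row of the expression table, so 10 genes of 24044 named rows are described. All 10 reached 1 FPKM (fragments per kilobase of transcript, scaled to the fragments of the library) in at least 3 of the 9 libraries and belong to the 12711 genes tested. RNA was sequenced from 3 ES cell lines, E14, v6.5 and Oct4 GiP, each in Serum, in 2i and in the condition named Paused. Each line contributed 1 library to each condition, 9 in all and 3 per condition. All cells were grown on gelatin at passages 20 to 23, and every sample received ERCC spike-in RNA. Paused cells had 200 nM INK128, an inhibitor of the mTor kinase, for 2 weeks, and 2 weeks are given for the Serum and 2i samples too. The labels do not say what the media held, so whether and how much LIF each condition received is not known here. As the labels name no separate cultures within a line, each line in each condition is 1 sample. Each p-value sets a condition difference against the spread left between these lines. That spread was estimated over all 3 conditions and moderated by that of the other tested genes.

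LIF binds Lifr, which pairs with Il6st, the shared signalling chain also known as gp130. The Janus kinases bound to the receptor tails then phosphorylate Stat3, which enters the nucleus and activates genes that keep mouse ES cells undifferentiated. Socs3 is a direct Stat3 target that binds the receptor and kinase and shuts the signal off, and Ptpn11, known as SHP2, links the same receptor to the Ras and ERK pathway. Pim1 and Pim3 are serine/threonine kinases that Stat factors induce, and their abundance sets their activity because they need no activating phosphorylation. Messenger RNA levels do not measure phosphorylated Stat3, and the files hold no protein data.

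The labelled cell type was checked against its markers: 9 of 9 ES cell markers, among them Pou5f1, Sox2 and Nanog, were at 1 FPKM or more in every library. Between 11709 and 12112 named genes reached that level in a library, and the read depth behind the values is unknown. The summed level of 9 fibroblast feeder markers was 27.0 to 126 FPKM in Serum, 2.85 to 5.46 in 2i and 5.07 to 11.4 in Paused, with Lum listed at 0 in all 3 Serum libraries and Dcn in all 3 of 2i. In Serum Tagln alone was at 22.5 to 114, and 6 of the 9 were under 1 FPKM in all 3 libraries. Among them Pdgfrb had its highest mean in 2i, at 2.16 against 0.616 in Serum. The summed level of 8 trophoblast markers was 47.6 to 284 in Serum, 15.9 to 24.0 in 2i and 7.67 to 25.03 in Paused. Most of the Serum sum came from Krt8, at 24.4 to 161, and Krt18, at 18.65 to 108. Among the 8, Eomes had its highest mean in 2i, at 4.10 against 2.13 in Serum. The 7 primitive endoderm markers summed to 3.31 to 4.18, 3.12 to 5.01 and 2.42 to 4.70, and the 5 mesoderm markers to 2.25 to 17.8, 1.46 to 2.43 and 1.48 to 2.72. The 4 neuroectoderm markers summed to 29.0 to 40.7, 6.59 to 8.64 and 25.4 to 30.2, with Nes at a mean of 28.2 FPKM in Serum and 6.23 in Paused, and Pax6 and Sox1 at 4.61 and 1.71 in Serum and 13.6 and 8.503 in Paused. These levels move with the conditions, and their part in the results below was not tested. Beside FPKM the authors deposited a normalized expression value, which is FPKM times 1 constant per library. The constants were 3.40 to 3.74 in Serum, 2.45 to 3.17 in 2i and 1.81 to 1.99 in Paused, so that the median gene's log2 fold change moved by -0.87 for Paused against Serum, by -0.35 for 2i against Serum and by -0.53 for Paused against 2i. Unless the authors' scale is named, differences are those of FPKM, which sets a gene against the rest of its library, and a sign that turns on the authors' scale is given beside them. In these bulk samples, fewer cells expressing a gene and less of its RNA per cell cannot be told apart.

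In every condition the Pim kinases and Socs3 were the 3 most abundant of the 10 genes per length and Jak2 the least. In Serum the order of mean FPKM was Pim1 (99.4 ± 16.4), Pim3 (92.3 ± 24.6), Socs3 (45.6 ± 12.2), Socs2 (39.5 ± 5.79), Stat3 (30.5 ± 3.74), Ptpn11 (25.03 ± 1.19), Il6st (12.4 ± 4.86), Lifr (10.1 ± 2.34), Jak1 (9.68 ± 1.001) and Jak2 (1.24 ± 0.269), as mean ± SD with n = 3. Among neighbours in that order the 3 libraries of one gene overlapped those of the next for Pim1 and Pim3, for Socs3 and Socs2, for Socs2 and Stat3, for Il6st and Lifr, and for Lifr and Jak1. Over all 9 libraries Pim3 lay above 92.7% of the tested genes and Pim1 above 92.1%, Stat3 above 75.7%, Lifr above 52.5% and Jak2 above 8.14%. In 2i the order was Pim3, Socs3, Pim1, Stat3, Socs2, Ptpn11, Il6st, Jak1, Lifr and Jak2, and neighbours overlapped except at Pim1 and Stat3, Stat3 and Socs2, and Lifr and Jak2. In Paused it was Pim3, Pim1, Socs3, Socs2, Stat3, Il6st, Ptpn11, Lifr, Jak1 and Jak2, and the libraries of Pim3 and Pim1, Socs3 and Socs2, and Ptpn11 and Lifr overlapped.

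**Figure D1:**
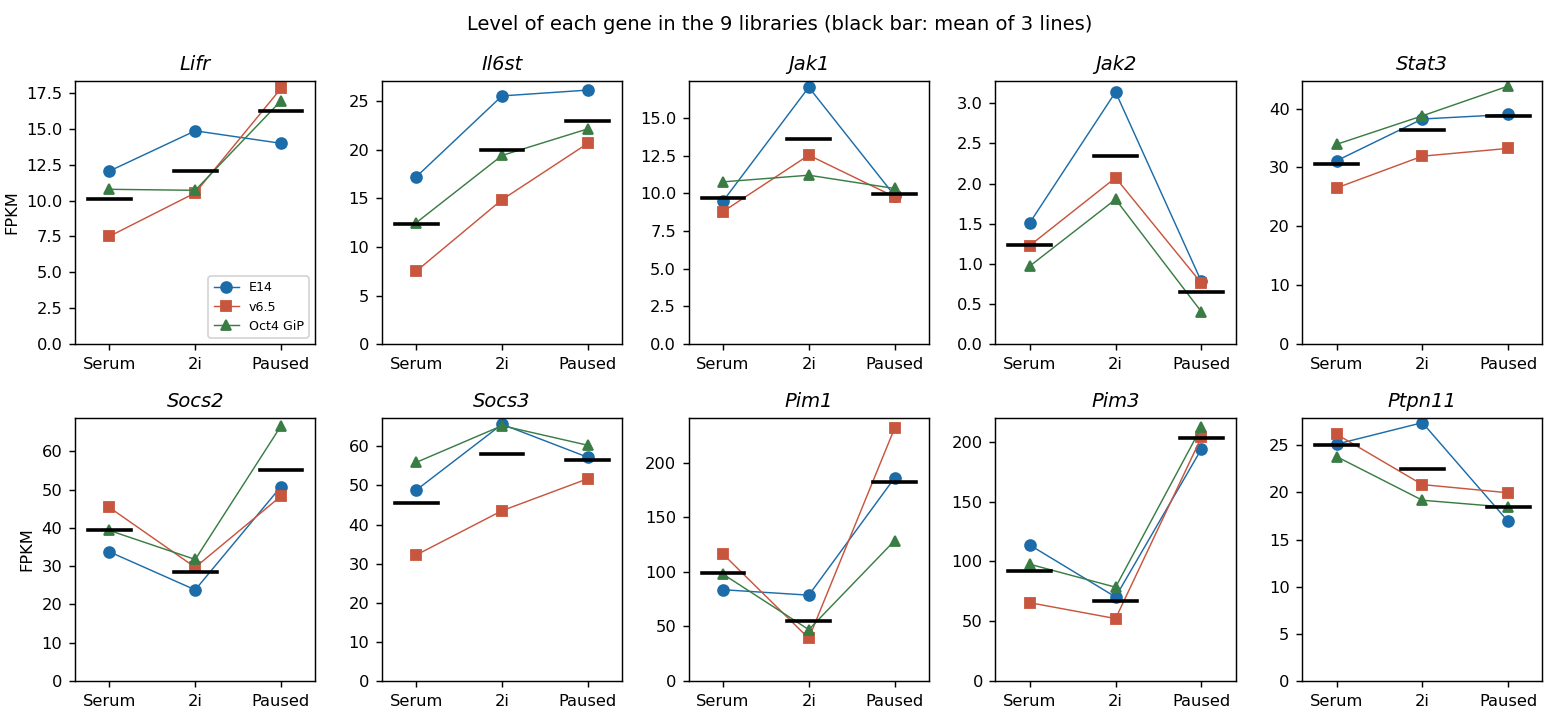
FPKM of the 10 genes (y axis, each panel from 0) in Serum, 2i and Paused (x axis); each symbol is 1 library, lines join the libraries of a cell line, and black bars are means of 3. All 3 Paused libraries lie above all others for Pim1, Pim3 and Socs2 and below all others for Jak2.

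Paused cells were set against Serum cells to see what mTor inhibition goes with. Limma-trend called 3 of the 10 genes, Pim3, Il6st and Stat3, all higher in Paused in FPKM (Stat3 was lower on the authors' scale), beside 18.2% of all tested genes called in that comparison (7.64% higher and 10.5% lower). At an unadjusted p below 0.05 stood 9 of the 10, all but Jak1. For 2i against Serum 4 were called, with Il6st, Jak2 and Stat3 higher in FPKM (Stat3 was at -0.12 on the authors' scale, short of the threshold) and Socs2 lower, against 40.6% of all genes (21.7% higher and 18.9% lower). For Paused against 2i 4 were called, with Pim1, Pim3 and Socs2 higher and Jak2 lower, against 44.4% of all genes (19.8% higher and 24.6% lower). In the comparisons with 2i the members' share lies near that of all genes. In FPKM the median log2 fold change of the 10 genes was 0.40, 0.24 and 0.15 in the 3 comparisons, beside -0.01, 0.02 and -0.03 for all tested genes. On the authors' scale the medians of all tested genes were -0.88, -0.33 and -0.56. That of the 10 genes was not taken there, and only Il6st and Pim3 were above Serum in Paused on that scale. An F test over the 3 conditions called 6 of 10 (Il6st, Jak2, Stat3, Socs2, Pim1 and Pim3), against 54.8% of all genes. The comparisons share libraries, since each condition enters a pair of them.

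The 3 calls of Paused against Serum were sensitive to leaving out 1 library, while the fold changes in FPKM kept their sign. In those 9 fits they ran from 0.97 to 1.33 for Pim3, 0.73 to 1.03 for Il6st and 0.30 to 0.35 for Stat3. None of the 10 genes was called without the Oct4 GiP Serum library, or without any 1 of the 3 Paused libraries, and 6 were without the E14 library of 2i. Over all genes the calls in this comparison, 2311 from all 9 libraries, ran from 12 to 3223 with 1 library left out. For 2i against Serum the count of members was 2 without any 1 Serum library, without the v6.5 or the Oct4 GiP library of 2i, or without the E14 Paused library, and 2 to 5 over the 9 such fits. For Paused against 2i it was 4 or 5, and Jak2, Socs2, Pim1 and Pim3 were called in 9 of 9 such fits.

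**Figure D2:**
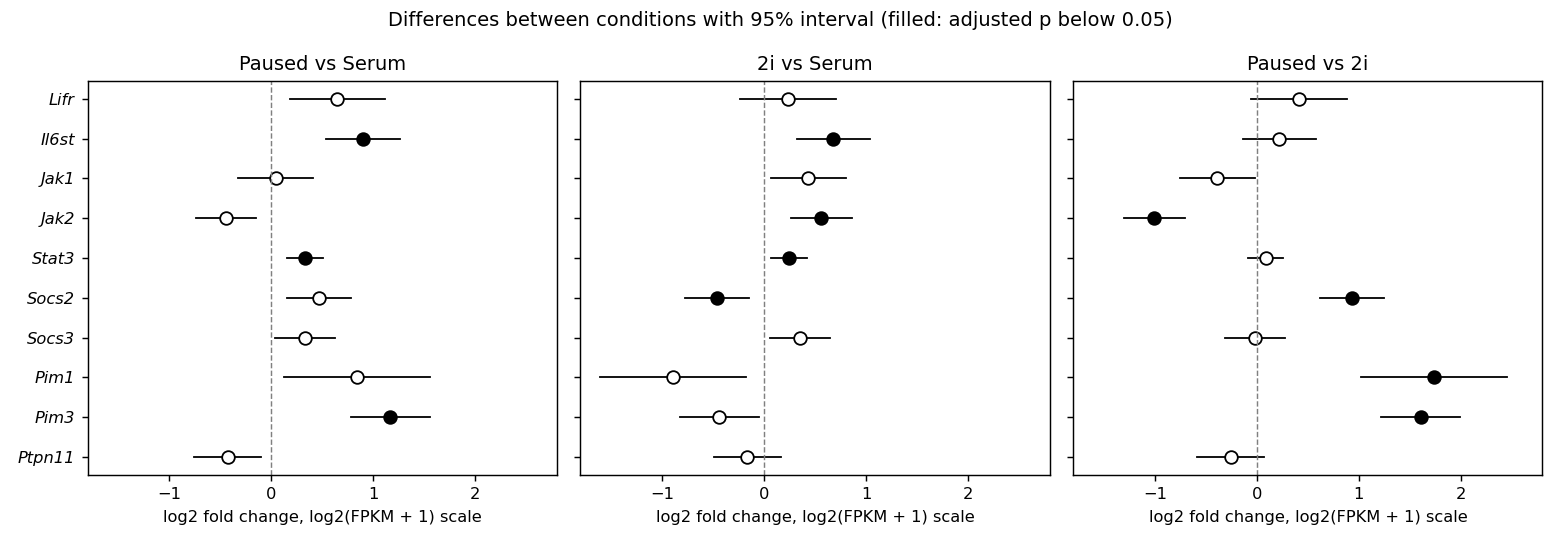
Log2 fold change on the log2(FPKM + 1) scale (x axis) of the 10 genes (rows) in the 3 comparisons (panels), with 95% confidence intervals from limma; filled points have an adjusted p below 0.05. In Paused against 2i, Pim1, Pim3 and Socs2 lie to the right of 0 and Jak2 to the left.

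The receptor chains were examined first. Il6st stood at 17.2, 7.51 and 12.5 FPKM in E14, v6.5 and Oct4 GiP in Serum, at 25.55, 14.9 and 19.4 in 2i and at 26.15, 20.7 and 22.2 in Paused. All 3 Paused libraries were above all 3 Serum libraries, and 2i overlapped both. Il6st rose from Serum to Paused by 0.90 ± 0.15 (log2 fold change ± SE, adjusted p = 0.017), which became 0.03 (adjusted p = 0.91) on the authors' scale. From Serum to 2i it rose by 0.68 ± 0.15 (adjusted p = 0.014), and by 0.35 (adjusted p = 0.18) on the authors' scale. Within lines Paused was 1.52, 2.75 and 1.77 times Serum, largest in v6.5, whose Serum library held the least Il6st of all 9. Without that library the Paused difference was 0.73 (adjusted p = 0.044). The Paused call was lost without the Oct4 GiP Serum library (adjusted p = 0.077) or without any 1 Paused library (adjusted p = 0.061 to 0.065), and the 2i call without the Oct4 GiP library of 2i (adjusted p = 0.051). Without the line as a block neither passed the threshold (adjusted p = 0.074 and 0.099). Paused and 2i differed by 0.22 (95% interval -0.14 to 0.58, adjusted p = 0.27), and by -0.325 (adjusted p = 0.19) on the authors' scale.

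Lifr, the LIF-binding chain, was at 12.05, 7.51 and 10.8 FPKM in Serum, 14.85, 10.5 and 10.7 in 2i and 13.98, 17.8 and 16.9 in Paused. Its Paused libraries also lay above its Serum libraries without overlap, and the ratio was 1.16 for E14, 2.37 for v6.5 and 1.57 for Oct4 GiP. The log2 fold change of 0.65 ± 0.19 did not pass the test (95% interval 0.18 to 1.12, adjusted p = 0.064) and was -0.22 on the authors' scale. It was 0.48 (adjusted p = 0.18) without the v6.5 Serum library. Lifr in 2i differed from Serum by 0.24 (95% interval -0.23 to 0.71, adjusted p = 0.36), and by -0.11 on the authors' scale. Paused stood 0.41 above 2i (95% interval -0.06 to 0.88, adjusted p = 0.13) and at -0.12 of it on the authors' scale. In FPKM, without the E14 Paused library the difference from 2i was 0.65 (adjusted p = 0.036). The level of Il6st divided by that of Lifr was 1.20 ± 0.217 in Serum, 1.65 ± 0.21 in 2i and 1.45 ± 0.374 in Paused, so FPKM of the shared chain equalled or exceeded that of the LIF-binding chain in all 9 libraries.

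Of the Janus kinases, Jak2 was the one called. It stood at 1.51, 1.23 and 0.973 FPKM in Serum, 3.14, 2.07 and 1.80 in 2i and 0.781, 0.760 and 0.405 in Paused. The 3 conditions did not overlap, with 2i highest and all Paused libraries below 1 FPKM. Jak2 rose in 2i against Serum by 0.56 ± 0.12 (adjusted p = 0.014) and was lower in Paused than in 2i by -1.01 ± 0.12 (adjusted p = 0.0018), which on the authors' scale were 0.45 (adjusted p = 0.12) and -1.75 (adjusted p = 0.00064). At this low level the added 1 FPKM shrinks the difference: with 0.1 in its place the values were 0.85 and -1.71, Paused against Serum passed the threshold at -0.86 (adjusted p = 0.039), and within lines Paused was 0.249, 0.367 and 0.224 of 2i in FPKM. Paused against Serum gave -0.44 ± 0.12, just short of the threshold (adjusted p = 0.053), and passed it at -0.47 (adjusted p = 0.045) after median centring and at -1.30 (adjusted p = 0.0013) on the authors' scale. The rise in 2i was not called without the E14 or the Oct4 GiP Serum library (adjusted p = 0.052 and 0.053), and the Paused difference from Serum was called without the E14 library of 2i (adjusted p = 0.035).

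Jak1, the Janus kinase most closely tied to gp130, was at 9.48, 8.79 and 10.8 FPKM in Serum, 17.0, 12.5 and 11.2 in 2i and 9.85, 9.77 and 10.3 in Paused. Paused differed from Serum by 0.04 (95% interval -0.32 to 0.41, adjusted p = 0.86), with the Oct4 GiP line slightly the other way, and by -0.85 (adjusted p = 0.0079) on the authors' scale. All 3 libraries of 2i lay above those of the other conditions, by 0.43 ± 0.15 over Serum (adjusted p = 0.062) and with Paused at -0.39 ± 0.15 of 2i (adjusted p = 0.079). Both differences were largest in E14, where 2i was 1.80 times Serum, and smallest in Oct4 GiP, at 1.04 times. Without the Oct4 GiP library of 2i they were 0.60 (adjusted p = 0.033) and -0.56 (adjusted p = 0.035). The ratio of Jak2 to Jak1 was 0.130 ± 0.0356 in Serum, 0.170 ± 0.0124 in 2i and 0.0654 ± 0.0227 in Paused, and the 3 conditions did not overlap. Tyk2, the other Janus kinase on a row of its own, averaged 10.3 ± 3.84, 13.4 ± 2.35 and 12.1 ± 4.87 FPKM and was called in none of the 3 comparisons, with 0 of them at an unadjusted p below 0.05. Its difference of Paused from Serum was 0.20 in FPKM and -0.69 (adjusted p = 0.023) on the authors' scale. Of the summed FPKM of Jak1, Jak2 and Tyk2, Jak2 made up 3.70% to 7.42% in Serum, 6.60% to 10.2% in 2i and 1.42% to 3.88% in Paused. Jak1 made up 36.3% to 55.1% over all 9 libraries.

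Stat3 was at 31.1, 26.5 and 33.9 FPKM in Serum, 38.2, 31.9 and 38.8 in 2i and 39.0, 33.2 and 43.8 in Paused. The conditions overlapped, since v6.5 was lowest in each, while within lines the shift was even: Paused was 1.25, 1.25 and 1.29 times Serum. In FPKM Stat3 rose in Paused by 0.33 ± 0.07 (adjusted p = 0.030) and in 2i by 0.24 ± 0.07 (adjusted p = 0.037) over Serum, but on the authors' scale the differences were -0.59 (adjusted p = 0.0059) and -0.12 (adjusted p = 0.51). Without the line as a block neither passed (adjusted p = 0.15 and 0.21). The Paused call held in 2 of the 9 fits without 1 library (without the E14 or the v6.5 library of 2i), with adjusted p from 0.021 to 0.12, and the 2i call held in 0 of 9, with adjusted p from 0.059 to 0.12. The fold changes themselves stayed between 0.30 and 0.35 for Paused and between 0.22 and 0.28 for 2i. Paused and 2i differed by 0.09 in FPKM (95% interval -0.09 to 0.26, adjusted p = 0.37), while on the authors' scale Stat3 was lower in Paused, at -0.47 (adjusted p = 0.020).

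The promoters of the inhibitor Socs3 and of both Pim kinases are shown because Socs3 is a classical Stat target and both Pim genes were called in Paused against 2i. Stat dimers bind palindromes of the form TTCNNNGAA, which reads the same on both strands. The windows are the 250 bases before the annotated start in RefSeq (GRCm38.p6), 5′ to 3′ on the gene's strand, and 9 of the 10 genes matched that table, with 11 windows since Lifr and Pim1 have 2 each. The Socs3 window is chr11:117969367-117969616 (minus strand), the Pim1 window chr17:29490535-29490784 (plus) and the Pim3 window chr15:88861944-88862193 (plus). Capitals mark a match to TTCNNNGAA.
Socs3: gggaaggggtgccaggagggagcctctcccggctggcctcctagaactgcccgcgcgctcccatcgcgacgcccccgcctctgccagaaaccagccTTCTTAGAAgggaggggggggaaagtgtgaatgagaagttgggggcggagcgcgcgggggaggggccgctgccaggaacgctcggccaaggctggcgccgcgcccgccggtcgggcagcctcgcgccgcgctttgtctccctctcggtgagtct
Pim1: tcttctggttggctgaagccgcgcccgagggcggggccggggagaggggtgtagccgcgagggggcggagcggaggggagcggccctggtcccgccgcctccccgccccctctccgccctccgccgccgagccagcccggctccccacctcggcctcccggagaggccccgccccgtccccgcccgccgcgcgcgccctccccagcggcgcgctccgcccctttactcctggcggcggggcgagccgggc
Pim3: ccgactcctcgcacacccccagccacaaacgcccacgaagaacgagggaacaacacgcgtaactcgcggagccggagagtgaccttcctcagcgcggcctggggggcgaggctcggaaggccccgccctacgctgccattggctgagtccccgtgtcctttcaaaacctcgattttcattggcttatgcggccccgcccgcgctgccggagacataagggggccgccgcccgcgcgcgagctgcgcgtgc
The palindrome was found in 1 of the 11 windows, as TTCTTAGAA in Socs3 from 154 bases before the start, and in 2306 of 32851 RefSeq windows of the same length (7.02%). Its narrower form TTCCNGGAA, every match of which is also a match of the wider one, was found in 0 of the 11 and in 300 of 32851 (0.913%). A match in letters does not show binding, and a window without one says nothing of sites elsewhere. By the GENCODE M21 annotation of GRCm38, Socs3 spans 117966079 to 117970047 on chromosome 11, so its window lies inside the annotated gene. Pim1 spans 29490753 to 29496112 on chromosome 17 and Pim3 88862186 to 88865726 on chromosome 15, and each start falls within its window. Of the receptor genes, Lifr spans 7090614 to 7197489 on chromosome 15 and Il6st 112464070 to 112510086 on chromosome 13. Jak1 lies at 101152367 to 101265282 on chromosome 4, Jak2 at 29251828 to 29313080 on chromosome 19 and Stat3 at 100885098 to 100939540 on chromosome 11. Socs2 lies at 95385362 to 95417180 on chromosome 10 and Ptpn11 at 121130533 to 121191397 on chromosome 5. In the same annotation an antisense transcript overlaps Pim1, Stat5a meets the end of Stat3, Raver2 overlaps Jak1 and a predicted gene overlaps Ptpn11. Whether fragments were counted by strand is not stated, so these 4 genes may share reads with their neighbours.

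Socs3, the feedback inhibitor of gp130, was at 48.8, 32.2 and 55.9 FPKM in Serum, 65.65, 43.5 and 65.3 in 2i and 57.2, 51.7 and 60.3 in Paused. All conditions overlapped, and v6.5 was the lowest line in each. Against Serum the differences were 0.33 ± 0.12 for Paused (95% interval 0.04 to 0.63, adjusted p = 0.10) and 0.35 ± 0.12 for 2i (0.06 to 0.65, adjusted p = 0.059), and on the authors' scale -0.59 (adjusted p = 0.017) and -0.01 (adjusted p = 0.98). Without the v6.5 Paused library the 2i difference passed the threshold (adjusted p = 0.029). Between Paused and 2i it was -0.02 (95% interval -0.32 to 0.27, adjusted p = 0.90), and -0.58 (adjusted p = 0.024) on the authors' scale. Socs3 per Stat3 was 1.48 ± 0.23, 1.59 ± 0.195 and 1.47 ± 0.0901 in Serum, 2i and Paused, with overlapping libraries.

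Socs2, a family member best known for damping growth hormone signals, took another course. It was at 33.7, 45.3 and 39.3 FPKM in Serum, 23.8, 29.7 and 31.7 in 2i and 50.8, 48.3 and 66.6 in Paused. The 3 conditions did not overlap, with 2i lowest and Paused highest. In FPKM Socs2 fell from Serum to 2i by 0.46 on the log2 scale (SE 0.13, adjusted p = 0.033), and Paused lay above 2i by 0.93 ± 0.13 (adjusted p = 0.0028). On the authors' scale these were -0.84 (adjusted p = 0.0054) and 0.39 (adjusted p = 0.060). Paused against Serum gave 0.47 ± 0.13 (adjusted p = 0.053), and -0.45 (adjusted p = 0.029) on the authors' scale. The fall in 2i was called in 3 of the 9 fits without 1 library (those without the Oct4 GiP Serum, the v6.5 Paused or the Oct4 GiP Paused library), with adjusted p from 0.019 to 0.11 and the smallest difference, -0.33, without the v6.5 Serum library. Without the line as a block its adjusted p was 0.065. Socs2 per Socs3 was 0.691 to 1.41 in Serum, 0.362 to 0.682 in 2i and 0.888 to 1.11 in Paused, so that 2i stood below both other conditions.

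The Pim kinases had their highest levels in Paused. Pim3 was at 114, 65.4 and 97.6 FPKM in Serum, 70.2, 52.2 and 78.4 in 2i and 194, 204 and 212 in Paused. The 3 Paused libraries lay above all others, while Serum and 2i overlapped. Pim3 rose in Paused by 1.17 ± 0.16 over Serum (adjusted p = 0.014) and lay 1.61 ± 0.16 above 2i (adjusted p = 0.0011). On the authors' scale these were 0.24 (adjusted p = 0.29) and 1.06 (adjusted p = 0.0036). In each line Paused exceeded Serum, by factors of 1.71, 3.12 and 2.17, the largest in v6.5. The call against Serum held without the line as a block (adjusted p = 0.016) and was lost without the Oct4 GiP Serum library (adjusted p = 0.074) or any 1 Paused library (adjusted p = 0.056 to 0.058). 2i against Serum gave -0.44 ± 0.16 (adjusted p = 0.070), and adjusted p = 0.031 without the v6.5 Paused library.

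Pim1 was at 83.7, 116 and 98.0 FPKM in Serum, 78.7, 39.0 and 47.1 in 2i and 186, 232 and 129 in Paused. The 3 conditions did not overlap, and the spread between lines was wider than for Pim3. Pim1 was 1.74 ± 0.30 higher in Paused than in 2i (adjusted p = 0.0053), and 1.19 (adjusted p = 0.017) on the authors' scale. Within lines Paused was 2.37, 5.94 and 2.73 times 2i. Paused against Serum gave 0.84 ± 0.30 (95% interval 0.13 to 1.55, adjusted p = 0.094), and -0.09 (adjusted p = 0.82) on the authors' scale. It was called without the E14 or the v6.5 library of 2i (adjusted p = 0.0499 and 0.039). 2i against Serum gave -0.89 ± 0.30 (adjusted p = 0.052), with E14 at 0.94 of Serum and the other lines at 0.335 and 0.48. That difference was called without the E14 library of 2i (-1.22, adjusted p = 0.019) or of Serum (-1.17, adjusted p = 0.035). Pim1 per Pim3 ran from 0.600 to 1.78 over the 9 libraries, and the conditions overlapped.

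**Figure D3:**
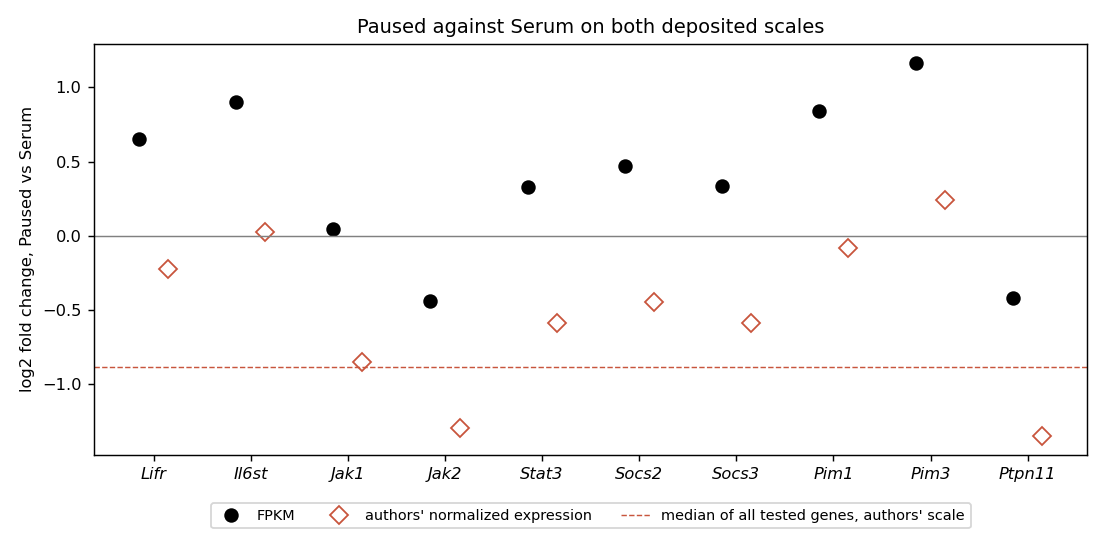
Log2 fold change of Paused against Serum (y axis) of the 10 genes (x axis) from FPKM (filled circles) and from the authors' normalized expression (open diamonds); the dashed line is the median of all tested genes on the authors' scale, -0.88. Il6st and Pim3 lie above 0 on both scales, and 6 genes change sign.

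Ptpn11, the phosphatase SHP2, was at 25.1, 26.2 and 23.8 FPKM in Serum, 27.4, 20.8 and 19.2 in 2i and 16.9, 20.0 and 18.4 in Paused. Its Paused libraries lay below all Serum libraries, at 0.673, 0.763 and 0.774 of Serum, and overlapped those of 2i. The difference of -0.42 ± 0.14 did not pass the test (95% interval -0.75 to -0.09, adjusted p = 0.076) and was -1.35 (adjusted p = 0.0010) on the authors' scale. 2i differed from Serum by -0.16 (95% interval -0.49 to 0.16, adjusted p = 0.37), with E14 the one line in which 2i was higher. Without the E14 library of 2i the differences from Serum were -0.42 for Paused (adjusted p = 0.018) and -0.34 for 2i (adjusted p = 0.029). Paused against 2i gave -0.26 (95% interval -0.59 to 0.07, adjusted p = 0.17).

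Counted by library, Paused and Serum did not overlap for 7 of the 10 genes (5 higher and 2 lower in Paused), beside 38.6% of all tested genes. For 2i against Serum 4 did not overlap (2 higher, 2 lower; 47.9% of all genes), and for Paused against 2i 5 did not (3 higher, 2 lower; 51.9%). On the authors' scale limma called 6 of the 10 genes lower and 0 higher in Paused than in Serum (Jak1, Jak2, Stat3, Socs2, Socs3 and Ptpn11), beside 77.3% of all tested genes called there (0.378% higher and 76.9% lower). On it 3 were lower in 2i than in Serum (Socs2, Pim1 and Pim3), beside 45.5% of all genes (9.76% higher and 35.7% lower). Between Paused and 2i, Pim1 and Pim3 were higher and 5 were lower (Jak1, Jak2, Stat3, Socs3 and Ptpn11), beside 60.7% of all genes (6.21% higher and 54.5% lower). The members' share of calls there thus lies below that of all genes in the comparisons with Serum and somewhat above it in Paused against 2i.

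The cell lines were compared in the same fit. An F test over the lines called 0 of the 10 genes, with 4 at an unadjusted p below 0.05, and 1.5% of all tested genes. Il6st had the order E14, Oct4 GiP, v6.5 in all 3 conditions, with v6.5 at -0.72 ± 0.15 of E14 (adjusted p = 0.067). That contrast called 0 of the 10 genes, with 3 at an unadjusted p below 0.05, and 2.08% of all genes (0.551% lower). The one of v6.5 against Oct4 GiP also called 0, with 4 at an unadjusted p below 0.05, and 0.551% of all genes. Jak2 had the order E14, v6.5, Oct4 GiP in all 3, and Stat3 the order Oct4 GiP, E14, v6.5. The v6.5 Serum library held the lowest value of all 9 for 5 of the 10 genes (Lifr, Il6st, Jak1, Stat3 and Socs3). The share of all tested genes lowest in that library was not counted, so this count cannot be read as particular to the members. In the same library Klf4 was at 12.2 FPKM, against 63.2 and 81.6 in the other Serum libraries, Tfcp2l1 at 5.70 against 30.8 and 49.6, and Nanog at 42.8 against 185 and 239. Other listed genes were highest there among the Serum libraries. Of the ES cell markers, Utf1 was at 718.5 FPKM against 508.1 and 542.7, and Tdgf1 at 514.9 against 340.8 and 376.3. Of the Stat3 targets, Mcl1 was at 196.6 against 159.3 and 162.8, and Zfp36 at 20.35 against 9.261 and 9.986. The part of these differences in the members' levels was not tested, and the values without this library stand beside Il6st, Lifr and Socs2 above.

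By the smallest root mean square difference between centred log2(FPKM + 1) profiles over the 9 libraries, the genes most like Socs3 were H1f0 (0.097), Btbd8 (0.099), Madd (0.120), Aspscr1 (0.135) and Ppp1r15a (0.138). The profile of Socs3 itself deviates from its mean by 0.300. Of the other members Stat3 came closest, in place 13 with 0.154. Those most like Lifr, which deviates by 0.342, were Osbpl2 (0.108), Maf1 (0.143), Dpy19l4 (0.146), Rdh14 (0.157) and Rmnd5a (0.166).

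The other pathway genes are given by lists, whose counts stand beside the shares of all genes called given above, 18.2%, 40.6% and 44.4% in FPKM and 77.3%, 45.5% and 60.7% on the authors' scale. Ligands of the gp130 family come first. Of 7 listed cytokines 3 were tested, with 1 lower in Paused than in Serum, 1 higher and 1 lower in 2i than in Serum, and 2 lower in Paused than in 2i. The medians of their log2 fold changes were -0.42, 0.38 and -1.34. Lif itself was at 2.20, 1.90 and 2.33 FPKM in Serum, 2.58, 3.85 and 2.95 in 2i and 0.675, 0.787 and 0.421 in Paused. Every Paused library was below every other. Lif fell from Serum to Paused by 0.95 on the log2 scale (SE 0.16, adjusted p = 0.017) and lay at -1.34 ± 0.16 of 2i (adjusted p = 0.0016). The call against Serum held in 4 of 9 fits without 1 library and was lost without the E14 or Oct4 GiP Serum library or any 1 Paused library, and the call against 2i held in 9 of 9. Osm, encoding oncostatin M, was higher in 2i than in Serum by 2.09 ± 0.24 (adjusted p = 0.0021), from 0.333 ± 0.322 to 5.18 ± 3.63 FPKM, and lower in Paused than in 2i by -2.10 ± 0.24 (adjusted p = 0.0016). Ctf1, encoding cardiotrophin 1, fell in 2i against Serum by 0.43 on the log2 scale (SE 0.14, adjusted p = 0.048), a call held in 1 of 9 fits without 1 library (that without the v6.5 Paused library). Il6 was at 0 to 0.0603 FPKM and did not reach the level for testing. Il11, Clcf1 and Cntf have no single row of their own and were not analysed here.

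Of 5 other receptor chains 3 were tested, with 0 called in Paused against Serum by limma and 0 at an unadjusted p below 0.05. In 2i against Serum 1 rose and 1 fell, and in Paused against 2i 2 were higher and 1 lower, with medians of 0.21, -0.21 and 0.42 in the 3 comparisons. Il6ra, the interleukin 6 receptor, was at 0.961, 0.214 and 0.425 FPKM in Serum, 5.63, 7.02 and 5.34 in 2i and 0.401, 0.268 and 0.139 in Paused. It stood far above the other conditions in every 2i library, by 2.21 ± 0.19 over Serum (adjusted p = 0.0010) and with Paused at -2.46 ± 0.19 of 2i (adjusted p = 0.00056). Cntfr, which binds ciliary neurotrophic factor ahead of Lifr and Il6st, ran the other way, at 10.1, 24.3 and 18.3 FPKM in Serum, 2.84, 1.43 and 0.859 in 2i and 20.4, 63.2 and 17.0 in Paused. It fell in 2i against Serum by 2.76 on the log2 scale (SE 0.46, adjusted p = 0.0057), and Paused lay 3.49 ± 0.46 above 2i (adjusted p = 0.0023). Its v6.5 Paused library stood far above both other Paused libraries, and both calls held in 9 of 9 fits without 1 library. With the whole Oct4 GiP line left out, in fits of fewer samples, Cntfr was not called in 2i against Serum but was in Paused against 2i. Il11ra1 was higher in Paused than in 2i by 0.42 ± 0.13 (adjusted p = 0.044), a call that held only without the E14 library of 2i among the 9 fits without 1 library and not without the line as a block (adjusted p = 0.070), and it has close copies in the mouse genome that may share its reads. Osmr and Il27ra did not reach the level for testing.

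Of the other Stat genes most were higher in 2i than in both other conditions. In 2i against Serum 5 of 6 rose and 0 fell (median 0.72), in Paused against 2i 5 of 6 were lower and 0 higher (median -0.66), and in Paused against Serum limma called 0, with 0 at an unadjusted p below 0.05 (median 0.02). Stat2, which acts in interferon signalling, was at 4.16, 3.67 and 3.74 FPKM in Serum, 8.77, 13.1 and 11.6 in 2i and 3.67, 2.98 and 4.32 in Paused. It rose in 2i by 1.31 ± 0.17 (adjusted p = 0.0029) and was lower in Paused than in 2i by -1.38 ± 0.17 (adjusted p = 0.0020). Stat5a rose in 2i by 0.97 ± 0.14 (adjusted p = 0.0038), and Stat5b was lower in Paused than in 2i by -0.84 ± 0.14 (adjusted p = 0.0049). Of the 5 in each comparison 4 and 3 were called in all 9 fits without 1 library. The exception, Stat4, was at 3.19 ± 0.654 FPKM in Serum, 2.39 ± 0.245 in 2i and 2.78 ± 0.418 in Paused, with 2i at -0.29 ± 0.15 of Serum (adjusted p = 0.17) and called lower on the authors' scale (-0.69, adjusted p = 0.025). Stat6 was lost in 2i against Serum without the v6.5 or Oct4 GiP library of Serum or of 2i. In Paused against 2i, Stat6 was called without the E14 or the v6.5 Serum library and in no other such fit, and without the line as a block it was called in neither comparison. On the authors' scale limma called 5 of the 6 lower in Paused than Serum, 4 higher and 1 lower in 2i than Serum, and 5 lower in Paused than 2i. Leaving out the whole E14, v6.5 or Oct4 GiP line, in fits of fewer samples, left 4, 3 and 0 called higher in 2i than Serum. In the same fits 4, 3 and 1 were called lower in Paused than 2i, the last being Stat2.

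Of 13 other inhibitors limma called 0 in Paused against Serum, with 3 at an unadjusted p below 0.05 (median -0.02), while on the authors' scale it called all 13 lower, beside 76.9% of all genes. In 2i against Serum 4 rose and 2 fell (median -0.01), and in Paused against 2i 2 were higher and 4 lower (median -0.08). These splits on the authors' scale were 1 higher and 5 lower, and 1 higher and 8 lower. Cish, which Stat5 induces, was at 2.89, 3.26 and 2.12 FPKM in Serum, 1.31, 1.73 and 1.30 in 2i and 3.19, 3.27 and 2.91 in Paused. Its libraries of 2i lay below all others, by -0.61 ± 0.12 against Serum (adjusted p = 0.0090) and with Paused 0.76 ± 0.12 above 2i (adjusted p = 0.0038). Pias3, which binds Stat3 directly, rose in 2i by 0.78 ± 0.11 (adjusted p = 0.0034) and was lower in Paused than in 2i by -0.60 ± 0.11 (adjusted p = 0.0063). Pias2 rose in 2i by 0.63 ± 0.13 (adjusted p = 0.011) and the phosphatase Ptpn1 fell in 2i by 0.39 on the log2 scale (SE 0.09, adjusted p = 0.019), both against Serum. Against 2i, Ptpn6, the phosphatase SHP1, was lower in Paused by -0.60 ± 0.13 (adjusted p = 0.012), and Pias1 was higher by 0.44 ± 0.12 in FPKM (adjusted p = 0.025) but at -0.07 on the authors' scale. With 1 library left out, the calls of Cish, Pias2 and Pias3 held in 9 of 9 fits. That of Ptpn1 was lost without the E14 or Oct4 GiP Serum library or the Oct4 GiP library of 2i, that of Ptpn6 without the Oct4 GiP library of 2i or the E14 or v6.5 Paused library. That of Pias1 was lost without the v6.5 or Oct4 GiP library of 2i or any 1 Paused library. With the whole Oct4 GiP line left out, in fits of fewer samples, 0 of the 13 were called in either comparison with 2i. Of 2i against Serum, only Pias3 stayed called without the v6.5 line, and Cish was lost without the E14 line. Cish and Pias3 stayed called in Paused against 2i without either of these lines. Pias2 was not called in 2i against Serum on the authors' scale.

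Genes known as Stat3 targets in ES cells moved in both directions. Of 12, limma called 0 in Paused against Serum, with 4 at an unadjusted p below 0.05 (median 0.42). In 2i against Serum 3 rose and 6 fell (median -0.53), and in Paused against 2i 7 were higher and 2 lower (median 0.91). The splits on the authors' scale were 0 higher and 5 lower, 2 higher and 6 lower, and 4 higher and 3 lower. Myc, the growth-promoting factor, was at 55.2, 63.3 and 64.6 FPKM in Serum, 3.80, 5.40 and 7.51 in 2i and 66.5, 99.2 and 84.1 in Paused. It fell in 2i against Serum by 3.27 on the log2 scale (SE 0.15, adjusted p = 0.00056), and Paused lay 3.70 ± 0.15 above 2i (adjusted p = 0.00026). Junb, an immediate early gene, gave -1.79 ± 0.20 (adjusted p = 0.0019) and 1.98 ± 0.20 (adjusted p = 0.0011) in the same comparisons. Myc and Junb also answer to ERK, so the list does not read Stat3 alone. Tfcp2l1, a Stat3 target that sustains naive ES cells, rose in 2i by 2.58 ± 0.56 over Serum (adjusted p = 0.014) and was lower in Paused than in 2i by -2.06 ± 0.56 (adjusted p = 0.026). Klf4, also of the naive network, rose in 2i by 1.86 ± 0.52 (adjusted p = 0.032), and Bcl3 was lower in Paused than in 2i by -0.79 ± 0.18 (adjusted p = 0.015). In Serum Klf4 was at 81.6, 12.2 and 63.2 FPKM in E14, v6.5 and Oct4 GiP, and Tfcp2l1 at 49.6, 5.70 and 30.8. Their means in 2i were 149 and 131, so both rises were largest in v6.5. Without the Oct4 GiP Serum library 0 of the 12 rose in 2i, and without the E14 Paused library 0 were lower in Paused than in 2i. The call of Klf4 held without the E14 Serum, the v6.5 Serum or the E14 2i library, 3 of 9 such fits, and that of Tfcp2l1 in Paused against 2i was lost without any 1 Paused library. That of Bcl3 held in 7 of 9 fits and was lost without the E14 Paused library or the v6.5 library of 2i. Without the line as a block neither Tfcp2l1 nor Bcl3 was called in Paused against 2i (adjusted p = 0.053 and 0.088). Myc and Junb were called in 9 of 9 in both comparisons.

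The arm from SHP2 to ERK held calls in both directions. Of 14 genes 2 fell and 0 rose in Paused against Serum (median -0.10), 3 rose and 3 fell in 2i against Serum (median 0.02), and 3 were higher and 5 lower in Paused than in 2i (median -0.14). These counts lie near the shares of all genes called, 18.2%, 40.6% and 44.4%. Hras was at 70.7, 68.55 and 67.2 FPKM in Serum, 77.2, 58.9 and 58.2 in 2i and 48.4, 45.95 and 50.85 in Paused. It fell from Serum to Paused by 0.50 on the log2 scale (SE 0.11, adjusted p = 0.028), and Map2k1, which encodes the kinase MEK1, by 0.36 (SE 0.10, adjusted p = 0.0496). Neither was called without any 1 Serum or any 1 Paused library, nor was Map2k1 without the v6.5 or Oct4 GiP library of 2i or without the line as a block (adjusted p = 0.060). Map2k1 was also lower in Paused than in 2i by -0.74 ± 0.10 (adjusted p = 0.0022). Sos2, a Ras exchange factor, rose in 2i over Serum by 0.72 ± 0.15 (adjusted p = 0.013). The Ras gene Nras and the kinase gene Braf fell in 2i, by 0.68 (SE 0.11, adjusted p = 0.0056) and 0.48 (SE 0.10, adjusted p = 0.012). They were higher in Paused than in 2i by 0.75 ± 0.11 (adjusted p = 0.0035) and 0.70 ± 0.10 (adjusted p = 0.0030). Without the Oct4 GiP Serum library Braf and Sos2 were not called in 2i against Serum, and Sos2 was not without that line's 2i library. On the authors' scale 0 of the 14 were called higher and 13 lower in Paused against Serum, 0 and 5 in 2i against Serum, and 0 and 10 in Paused against 2i, beside 76.9%, 35.7% and 54.5% of all genes called lower. There Nras and Braf stood 0.21 and 0.20 above 2i (adjusted p = 0.31 and 0.28).

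**Figure D4:**
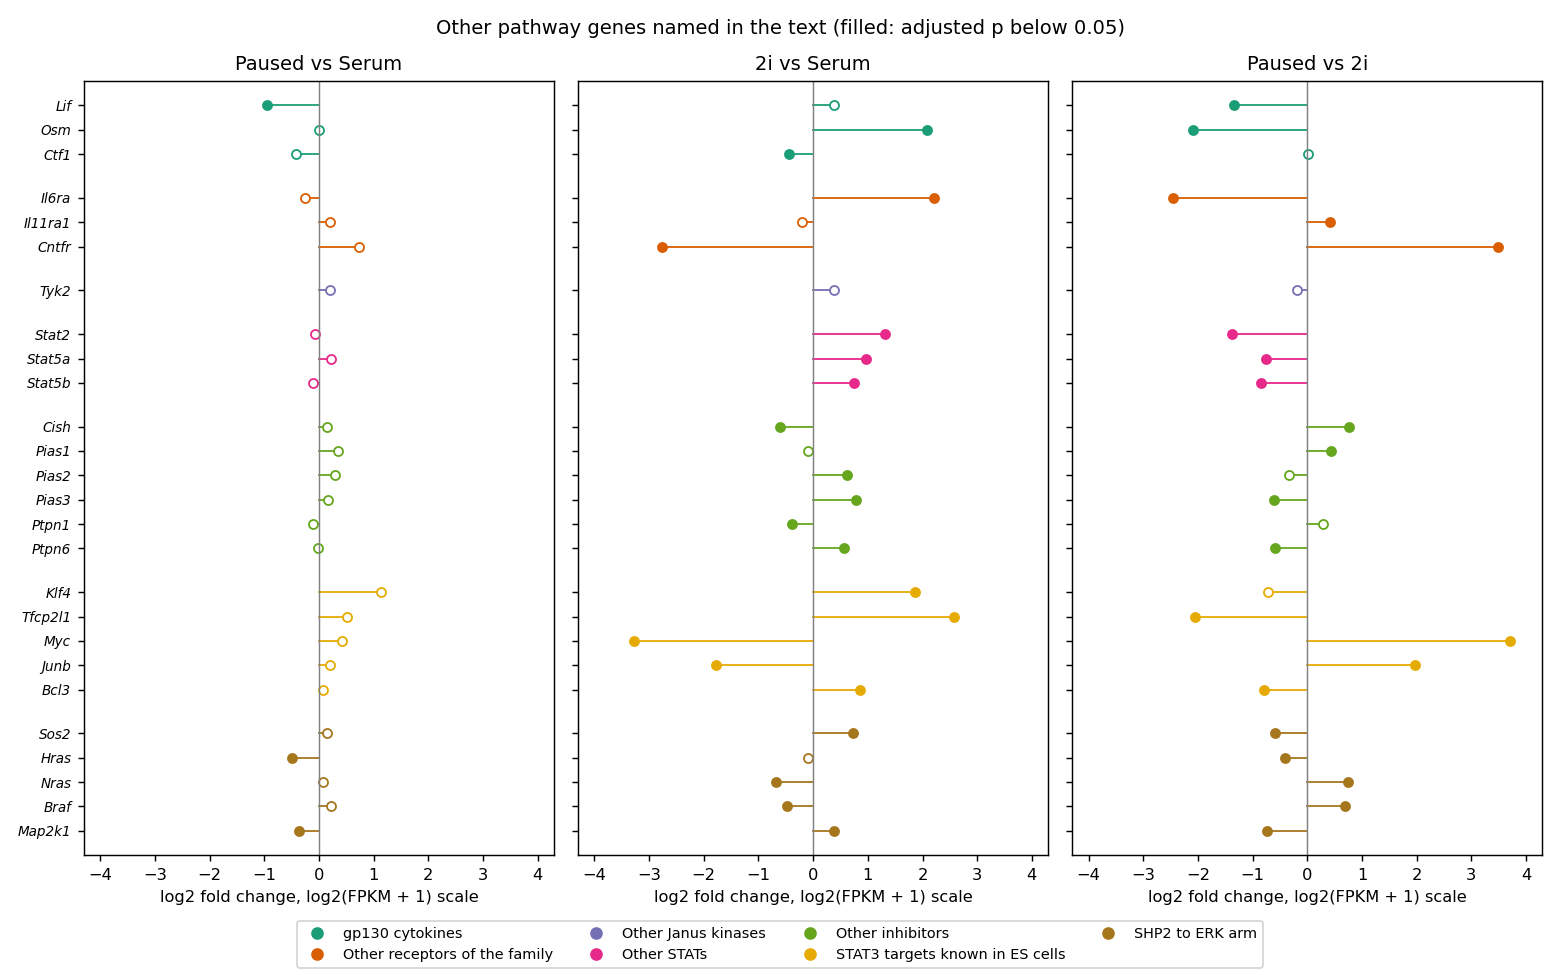
Log2 fold change on the log2(FPKM + 1) scale (x axis) of pathway genes named in the text (rows, coloured by list) in the 3 comparisons (panels); filled points have an adjusted p below 0.05. In Paused against Serum 3 points are filled (Lif, Hras and Map2k1), and Stat2, Stat5a and Stat5b lie right of 0 in 2i against Serum and left of 0 in Paused against 2i.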

How the data were processed

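The authors deposited 1 table with 18 value columns, 2 for each of 9 libraries, and every column matched a library by name (0 columns without a sample). The FPKM columns were made by the authors with Cuffnorm on mm10, per the submitters' processing notes, which give no version. Aligner, annotation and strand use: not given in the sources used here. A second column of each library, a normalized expression signal deposited by the authors, equals FPKM times 1 constant, and nothing used here states where it comes from. Each library began with 250 ng of total RNA and a directional kit (labels' protocols). As the table holds no counts, counting error cannot be given.

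Of 29801 rows, 5644 without a gene name (18.9%, with 52.8% to 64.0% of a library's summed FPKM) and 113 identical repeats were left out. Tested were the 12711 genes that reached 1 FPKM in 3 or more libraries, with limma-trend (limma 3.58.1, R 4.3.3) on log2(FPKM + 1), which understates changes of low genes. All 9 libraries entered 1 fit blocked by cell line. Adjusted p-values are Benjamini-Hochberg values over every tested gene, called below 0.05. The code was tested on simulated data. The labelled cell line pairs the libraries: deviations from condition means correlated at -0.001 to 0.401 within a line and at -0.243 to 0.094 between lines. The members and lists were chosen with earlier results of these data known. Named are all members, from each list the 2 called genes with the largest change per comparison and direction (the most abundant gene where none was called), and the 5 genes most like Socs3 and Lifr. Klf4, Tfcp2l1, Nanog, Utf1, Tdgf1, Mcl1 and Zfp36 in the v6.5 Serum library, and Stat4, Stat6, Nes, Pax6 and Sox1, were named after their values were seen. So were Tagln, Pdgfrb, Krt8, Krt18 and Eomes. Some list genes enter the counts but are not reported by name here. Alternatives were no line block, a pseudocount of 0.1, no filter or one at 5 FPKM, the authors' signal, median centring, 6 libraries only, and leaving out each library or line.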

Additional observations from a re-analysis of the deposited data

Results flagged for a closer look

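In 5 cases one cell line moved against the other lines under the same contrast. Each line has 1 library per condition, so the difference between lines was not tested. Values are log2 differences of log2(FPKM + 1) within a line. Lifr in 2i against Serum was at -0.0088 in Oct4 GiP and above 0 in E14 and v6.5 (0.28 and 0.44). Lifr in Paused against 2i was at -0.081 in E14 and at 0.71 and 0.62 in v6.5 and Oct4 GiP. Jak1 in Paused against Serum was at -0.055 in Oct4 GiP and at 0.05 and 0.14 in E14 and v6.5. Socs3 in Paused against 2i was at 0.24 in v6.5 and below 0 in the other lines. Ptpn11 in 2i against Serum was at 0.12 in E14 and below 0 in the other lines. None of these comparisons passed the test over all 9 libraries.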

How the results depend on the processing

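The number of the 10 genes called was 3 for Paused against Serum, 4 for 2i against Serum, 4 for Paused against 2i, 6 for the F test over conditions and 0 for that over lines. Without the replicate block for cell line it was 1 (Pim3) and 2 (Jak2 and Pim1) in the comparisons with Serum, and the 4 calls of Paused against 2i stayed. From the authors' normalized expression it was 6 for Paused against Serum and 7 for Paused against 2i. With only the 6 libraries of the conditions compared it was 5 for Paused against Serum and 2 for 2i against Serum. Leaving out a whole line gave 0 (E14), 0 (v6.5) and 0 (Oct4 GiP) for Paused against Serum and 2, 1 and 0 for 2i against Serum, in fits of fewer samples. With 1 library left out it ran from 0 to 6, 2 to 5, 4 to 5, 5 to 7 and 0 to 0 in the order above. After median centring Pim1 and Pim3 were called lower in 2i than in Serum, and Stat3 was not called there. At the filter of 5 FPKM, with 9 of the 10 genes tested, Socs2 was called higher in Paused than in Serum. Over all genes, calls of Paused against Serum went from 2311 to 9827 on the authors' scale, to 4, 7 and 4 without E14, v6.5 or Oct4 GiP cells, and to 12 to 3223 with 1 library left out. Those of 2i against Serum went from 5161 to 2985 with 6 libraries, to 2673 without v6.5, to 1269 without Oct4 GiP and to 2969 to 5436 with 1 library left out. Those of Paused against 2i went from 5638 to 3720 and 2073 without v6.5 and Oct4 GiP, and to 3543 to 5611. Those between lines went from 191 to 8 without a condition term, 10 without a filter, 63 on the authors' scale and 7 to 71 with 1 library left out, and those of the F test over conditions from 6970 to 10894 on the authors' scale.

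Signs reversed on the authors' scale, whose constants lower Paused and 2i. For Paused against Serum the values became Lifr -0.22, Jak1 -0.85, Stat3 -0.59, Socs2 -0.45, Socs3 -0.59 and Pim1 -0.086. For 2i against Serum they became Lifr -0.11, Stat3 -0.12 and Socs3 -0.0074. For Paused against 2i they became Lifr -0.12, Il6st -0.33, Stat3 -0.47 and Pias1 -0.067. Differences near 0 reversed too: Jak1 in Paused against Serum was -0.002417 without the v6.5 line and -0.044 to 0.16 with 1 library left out. Socs3 in Paused against 2i was 0.063 after median centring, 0.065 without E14, 0.024 without Oct4 GiP, and -0.17 to 0.058 with 1 library left out. The cause was not tested. Depth is unknown, so no limit from counting can be given, and with 1 library per line and condition a line's own response has no replicate.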
